A study of Mus musculus with 3 samples.

Results

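The genes described here are 8 neutrophil genes, S100a8, S100a9, Ngp, Camp, Ltf, Lcn2, Mpo and Elane, read in RNA from sorted CD4 T cells. They were chosen by name, and every probe set assigned to one of these symbols alone was taken. Each gene had 1 such probe set, giving 8 of the 45037 probe sets on the array besides its controls and 8 of 18193 named genes. The arrays are Affymetrix mouse arrays, on which a probe set reports the abundance of a transcript as a fluorescence intensity.

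The cells were memory phenotype CD4 T cells, which are helper T cells with the phenotype of cells that have met antigen. They were isolated from BALB/c spleen by flow sorting to a purity above 99%. One array held cells of mice on a normal diet (ND). The other 2 arrays, HFD 1 and HFD 2, held cells of mice on a high fat diet in which fat supplied 60% of the calories. Both diets lasted 10 weeks. No mutation, transgene or other treatment is named for either group, and neither the age of the mice nor their number per array is stated. Nothing says that the HFD arrays came from separate mice, so the p-values below reflect the spread between these arrays alone, and that spread may be technical.

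Neutrophils build their granules in waves as they mature in the bone marrow. Myeloperoxidase (Mpo) and neutrophil elastase (Elane) are made first, at the promyelocyte stage, and fill the primary granules. Lactoferrin (Ltf), lipocalin 2 (Lcn2), the cathelicidin Camp and the related neutrophilic granule protein (Ngp) follow in the secondary granules. S100a8 and S100a9 differ from these in place: they pair as calprotectin, a calcium and zinc binding complex that is one of the most abundant proteins of the neutrophil cytosol and is also made by monocytes. Their transcripts persist in mature neutrophils, whereas those of the primary granule proteins are largely shut off. None of the 8 genes is a marker of CD4 T cells.

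S100a8 and S100a9 rose in the HFD cells. Of the other 6 genes, only Ngp was bright enough to pass the filter on low values, and it was not called. None of these 6 was called when tested with no filter. S100a8 was 5.41-fold and S100a9 7.36-fold higher than in ND, on the offset scale explained below (n = 1 against 2 arrays). The 6 transcripts of granule proteins read between 2.36 and 96.2 on every array and differed by 1.66-fold or less. The cytosolic pair changed, and the granule cargo showed no difference that these 3 arrays could resolve. The summed intensity of the 6 granule genes was 161 in ND, 209 in HFD 1 and 229 in HFD 2. At such low readings, whether the granule genes moved with the pair could not be decided.

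The regulatory sequence just upstream of the start site is shown for the pair that rose and, for contrast, for Ngp, the granule gene with the most matches to the motif searched. Sequences are from RefSeq (build GRCm38.p6), 250 bases ending at the base before the annotated start, 5′ to 3′ on the gene's own strand. Capitals mark matches to a core motif of the C/EBP factors, which drive granule gene transcription, spelled TTNCNNAA and searched on both strands.
S100a8, chr3:90668821-90669070, plus strand: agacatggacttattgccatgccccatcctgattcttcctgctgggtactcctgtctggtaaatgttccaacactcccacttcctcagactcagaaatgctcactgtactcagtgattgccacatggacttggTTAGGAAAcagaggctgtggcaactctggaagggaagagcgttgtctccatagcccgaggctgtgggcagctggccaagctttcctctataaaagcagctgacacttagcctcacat
S100a9, chr3:90695722-90695971, minus strand: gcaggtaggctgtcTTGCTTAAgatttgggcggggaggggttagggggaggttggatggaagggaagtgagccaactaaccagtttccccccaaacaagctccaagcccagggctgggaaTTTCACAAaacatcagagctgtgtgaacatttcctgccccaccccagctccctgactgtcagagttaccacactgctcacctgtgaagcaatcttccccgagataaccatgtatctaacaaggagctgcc
Ngp, chr9:110419558-110419807, plus strand: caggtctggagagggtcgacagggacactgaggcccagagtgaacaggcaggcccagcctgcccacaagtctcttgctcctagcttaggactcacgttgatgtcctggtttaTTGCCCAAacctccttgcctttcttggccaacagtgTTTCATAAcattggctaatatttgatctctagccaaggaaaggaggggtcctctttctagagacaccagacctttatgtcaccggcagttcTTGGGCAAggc
S100a8 and S100a9 are next to each other on chromosome 3 with no other protein-coding gene annotated between them, and are transcribed toward each other. The core motif occurred 1 time upstream of S100a8, 2 times upstream of S100a9 and 3 times upstream of Ngp. It was present in 5 of the 8 genes, the others being Ltf and Lcn2, against 36.8% of 32851 promoter windows of the same length. The purine box of the myeloid factor PU.1 (GAGGAA, both strands) was present in 5 of the 8 genes and 23.3% of all windows, and a TATA box (TATAAA, both strands) in S100a8 alone, against 12.4% of all windows. These letters are a description of the windows and were not measured as binding sites.

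Several features of the 3 arrays touch every value below. T cell markers were bright throughout: 13 of the 15 listed were measured and all 13 passed the filter on low values, with a median of 9941 in ND and 7051 and 6539 in HFD. Of these 13, 0 rose and 9 fell in the test described below, which called 20.5% of all genes tested higher and 29.2% lower. With no filter 5 of the 13 fell, and with arrays centred on the median 4 fell. Among the 13, Cd4 read 911 in ND and 609 and 377 in HFD, and Cd3e, a chain of the T cell receptor complex, read 4167, 2558 and 2426. ND differed widely from HFD, with 5132 of 10341 tested genes called. H2-Ea is a class II histocompatibility gene of B cells and other antigen-presenting cells that BALB/c mice express and strains such as C57BL/6 do not. It read 11.5 in ND and 536 and 602 in HFD on its brightest probe set. The B cell genes Ms4a1 and Fcer2a, described below, were higher in HFD too, whereas markers of dendritic cells were lower, and whether H2-Ea reflects strain or cell content was not tested. With 1 ND array, a difference of strain, handling or array batch cannot be told apart from diet. Xist, expressed from the inactive X chromosome of females, read 23034, 20936 and 20274, and the 3 Y-linked genes measured read 45.2 or less, so all 3 arrays read as female in these genes.

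To compare the diets, intensities were taken as log2(intensity + 17.65), where 17.65 is the 25th percentile of all values. Fold changes are on this scale and understate the change of dim genes. Levels are linear intensities, given as the single ND value and as the mean ± SD of the HFD arrays (n = 2). A gene was tested where its mean over the 3 arrays passed 71.4, the median of all probe sets. The difference was tested with limma's moderated test, adjusted by the Benjamini-Hochberg method over all 10341 genes, and called at an adjusted p under 0.05. The residual spread came from the HFD arrays alone, with 1 degree of freedom per gene, and limma takes the same spread for the single ND array, whose own error is unknown. Limma then draws each gene's spread toward a trend over all genes in the fit, with 11.7 prior degrees of freedom where the filter was used. Each SE below is this moderated value, taken largely from other genes, and does not measure the spread of the gene's own arrays.

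S100a8, the smaller calprotectin subunit, read 40.9 in ND, 247 in HFD 1 and 362 in HFD 2. Both HFD arrays were high and the ND array was low, without overlap. The HFD mean was 305 ± 81.5 and the log2 difference 2.44 ± 0.28 (SE). The adjusted p by limma was 1.9e-05 with the filter, which S100a8 passed through its HFD values alone, and 0.0096 with no filter. The HFD arrays lay 0.52 apart on the log2 scale, and the smaller of their differences to ND was 2.18. The _s_at suffix of its probe set marks, by Affymetrix's naming, probes that can match more than one transcript.

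S100a9, its partner subunit, read 5.85 in ND, 183 in HFD 1 and 131 in HFD 2. The ND value was again the lowest and far from both HFD values. The HFD mean was 157 ± 36.7 and the log2 difference 2.88 ± 0.39 (SE). The adjusted p by limma was 7.1e-05 with the filter, again passed through the HFD values alone, and 0.010 with no filter. Since the ND value lies below the offset of 17.65, the size of this increase depends on the offset: the log2 difference was 4.51 with an offset of 1 and 1.55 with an offset of 71.5. S100a8 was highest in HFD 2 and S100a9 in HFD 1, so the pair shared the difference between diets but not the order of the HFD arrays.

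Both genes passed the filter only through their HFD values, since their ND values were under 71.4, and so could hardly have been tested without differing. When all 18193 named genes were tested with no filter, both were still called, with adjusted p of 0.0096 for S100a8 and 0.010 for S100a9 by limma. In that fit 2 of the 8 genes were higher and 0 lower (0 lower also at an unadjusted p under 0.05), where 9.14% of all genes were called higher and 10.6% lower. With the filter, 20.5% of genes were called higher (2117) and 29.2% lower (3015). This balance depends on the scaling of the arrays: with each array centred on its median, 2757 genes were called higher and 2097 lower, and the median over all genes moved from -0.15 to 0.00. Counts of list members called in each direction are to be read against these shares. Without using a p-value, S100a8 and S100a9 were the members at least 2-fold above ND in both HFD arrays, and none was 2-fold below. Over all named genes, the same rule of size took 4.28% upward and 2.82% downward.

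At the brightness of these genes the arrays were noisier than for bright genes. Among the 2706 tested genes with a mean up to 300, the HFD arrays differed by a median of 0.22 on the log2 scale, and 95% of genes differed by 0.75 or less, against 0.13 and 0.53 over all tested genes. The gaps between the HFD arrays of 0.52 for S100a8 and 0.43 for S100a9 lie within this range. Among the 7852 genes below the filter, where the ND readings of both lie, 95% differed by 1.29 or less. No such spread could be measured for ND, which had 1 array. Of these 2706 genes, 3.58% lay at least 2-fold above ND in both HFD arrays, and 4.07% at least 2-fold below. With S100a8 as a level in bulk RNA, a larger share of cells carrying the transcript and more transcript per cell cannot be told apart.

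**Figure D1:**
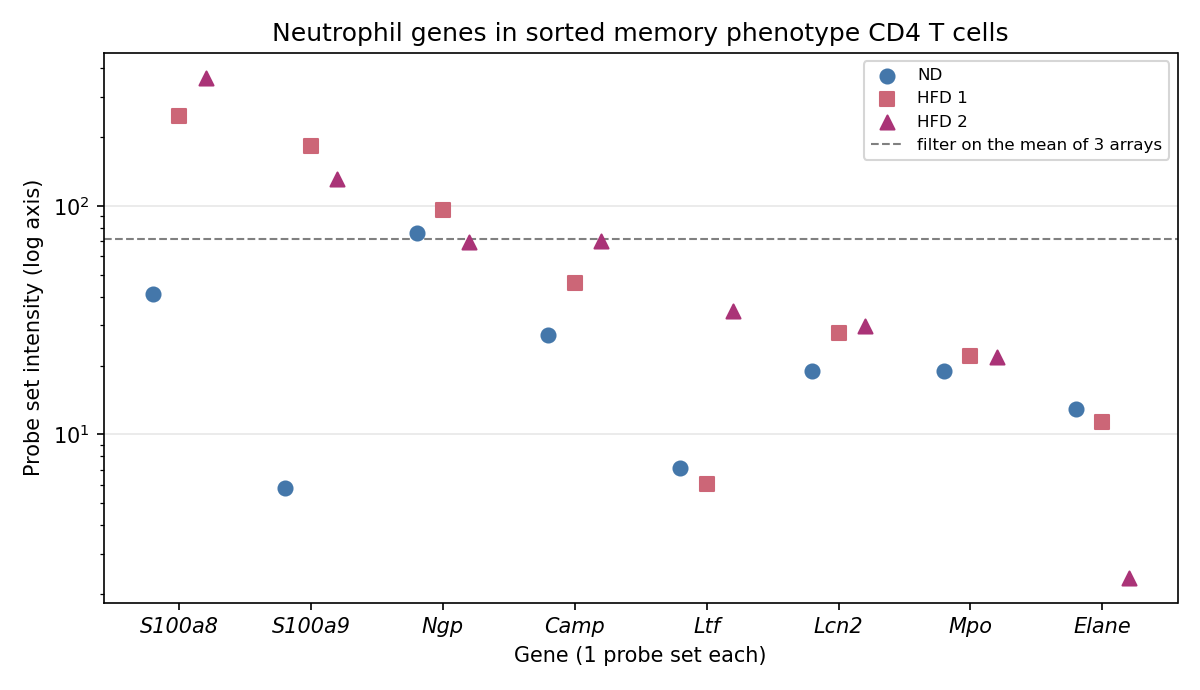
Intensity of the 8 neutrophil genes on each array (log axis; circle ND, square HFD 1, triangle HFD 2; 1 probe set per gene); the dashed line is the filter of 71.4, which was applied to the mean of the 3 arrays. S100a8 and S100a9 stand at 131 to 362 in HFD and at 40.9 and 5.85 in ND, while the other 6 genes stay at or below 96.2 on every array.

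Among the secondary granule genes, only Ngp passed the filter. It read 76.1 in ND, 96.2 in HFD 1 and 69.1 in HFD 2, so the ND value lay between the HFD values. The log2 difference was 0.08 ± 0.37 (SE; adjusted p = 0.87 by limma). Camp, whose product is cut to an antimicrobial peptide, read 27.3 in ND, 45.8 in HFD 1 and 70.5 in HFD 2. The ND value was the lowest, and the HFD values were about as far from each other (0.47 on the log2 scale) as the nearer of them was from ND (0.50). Its log2 difference of 0.73 ± 0.43 (SE) had an adjusted p of 0.32 in limma's fit with no filter, the fit that gives the values of the remaining genes as well.

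Ltf, the iron-binding lactoferrin, read 7.10 in ND, 6.03 in HFD 1 and 34.8 in HFD 2. A single HFD array was high here, and the other lay beside ND. The log2 difference of 0.51 ± 0.55 (SE; adjusted p = 0.59 by limma) rests on HFD 2, since it was -0.06 with HFD 1 alone. Lcn2, which binds bacterial iron carriers, read 19.0 in ND, 27.8 in HFD 1 and 29.9 in HFD 2. Both HFD values were above ND and close to each other, but the log2 difference of 0.34 ± 0.38 (SE) did not pass the test (adjusted p = 0.60 by limma).

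The primary granule genes were dim on all arrays. Mpo read 18.9 in ND, 21.9 in HFD 1 and 21.9 in HFD 2, a log2 difference of 0.11 ± 0.37 (SE; adjusted p = 0.88 by limma). Elane read 12.9 in ND, 11.3 in HFD 1 and 2.36 in HFD 2, a log2 difference of -0.34 ± 0.38 (SE; adjusted p = 0.60 by limma). Elane was the only member whose ND value was above both HFD values. In all, ND lay below both HFD arrays in 5 of the 8 genes, above both in 1 and between them in 2. Over all named genes ND lay below both in 33.1% and above both in 47.9%.

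How dim these readings are can be seen from genes of organs other than spleen, such as albumin and insulin, which the cells are not known to express. The 28 of 32 such genes that were measured had a median of 34.1 in ND, 23.7 in HFD 1 and 31.1 in HFD 2, and 3 in 4 of them read at or below 58.4, 47.7 and 63.0. Probe sets differ in brightness for the same amount of RNA, so this range sets no order among genes. It shows that values of the size seen for Ltf, Lcn2, Mpo and Elane arise where no transcript is known to be present. The ND readings of S100a8 (40.9) and S100a9 (5.85) also lie in this range, so the size of their increase rests on dim ND readings and is not settled here. Detection calls were not used here, so expression of the granule genes can be neither stated nor denied from these values. On each array S100a8 stood at percentile 39.0 of all probe sets in ND and at 67.1 and 72.5 in HFD, and S100a9 at 12.5, 63.2 and 59.6.

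**Figure D2:**
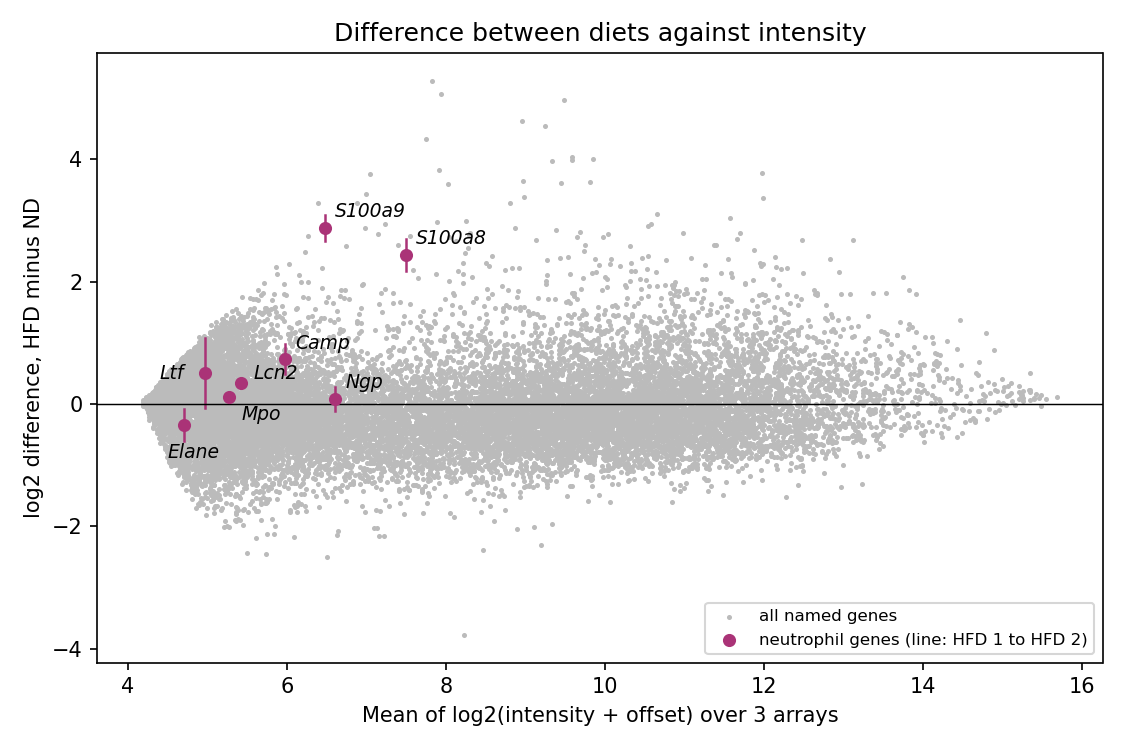
Difference between HFD and ND (log2) against the mean of log2(intensity + 17.65) over the 3 arrays, for all 18193 named genes (grey) and the 8 neutrophil genes (purple; point, mean of the HFD arrays; line, HFD 1 to HFD 2). S100a8 at 2.44 and S100a9 at 2.88 lie at the upper edge of the cloud, and the other 6 genes lie within it at -0.34 to 0.73.

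Among the other neutrophil genes measured, Fpr2 and Ctsc were the only ones called higher with or without the filter. Of 50 further genes of primary, secondary and tertiary granules and of the neutrophil surface, 40 were measured and 15 passed the filter. Of these 15, 1 rose, 7 fell and 7 did not pass the test, where 20.5% of all genes tested rose and 29.2% fell. The median log2 difference of the 15 was -0.55, against -0.15 over all genes tested. With no filter 2 of the 40, Fpr2 and Ctsc, were called higher and 5 lower, against 9.14% and 10.6% of all named genes. The median of the 40 was -0.27, against -0.10 over all named genes. The summed intensity of the 40 genes was 35470 in ND and 27460 and 26399 in HFD. Most of it came from Itgb2, Cyba and Ctsc, which T cells express too, and without these it was 8698, 4849 and 4837. The largest part of what was left was Cybb, at 2924 in ND and 1257 and 1321 in HFD. Lyz2, at 594, 267 and 280, is on the list of monocyte and macrophage markers too. S100a8 and S100a9 together summed to 46.8 in ND and 430 and 494 in HFD, and the 6 granule genes to 161, 209 and 229.

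Among other primary granule and progenitor genes, Prtn3, the proteinase gene next to Elane, read 20.9 in ND and 5.15 and 22.7 in HFD, and the cathepsin Ctsg read 1.53, 17.0 and 2.59. Neither passed the filter, and the HFD arrays disagreed for both. Ctsc, which activates the granule proteases and is also expressed in T cells, rose 1.30-fold (3183 to 4138 ± 47.7, adjusted p = 0.0095 by limma), with its dimmer probe sets reading lower in HFD (log2 -0.43 and -0.40). Lyz2, the lysozyme of neutrophils and macrophages, fell 2.10-fold (594 to 274 ± 9.48, adjusted p = 3.5e-04 by limma). Gstm1, at 103 in ND and 83.3 ± 6.48 in HFD, did not pass the test (adjusted p = 0.56 by limma).

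In the secondary and tertiary granules, 7 of 16 measured genes passed the filter. Of these 7, 0 rose and 4 fell, against 20.5% and 29.2% of all genes tested. With no filter 0 of the 16 were called higher and 3 lower, against 9.14% and 10.6% of all named genes. Mmp9, the gelatinase of tertiary granules, read 805 in ND, 327 in HFD 1 and 239 in HFD 2. That is a fall of 2.77-fold (adjusted p = 7.3e-05 by limma), and its other probe set read lower in HFD too (log2 -0.94). Cybb, the catalytic chain of the phagocyte oxidase, fell 2.25-fold (2924 to 1289 ± 45.3), the protease Adam8 fell 2.05-fold (adjusted p = 0.0023, but 0.058 with no filter) and the shared leukocyte integrin chain Itgb2 fell 1.50-fold. Chil3 read 2.79 in ND and 2.39 and 0.64 in HFD, and Mmp8, the neutrophil collagenase, read 37.6, 13.7 and 44.7.

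The receptors that define mature neutrophils were dim. Csf3r, the receptor for the growth factor G-CSF, read 75.1 in ND, 51.5 in HFD 1 and 40.5 in HFD 2. Cxcr2, the chemokine receptor that draws neutrophils out of marrow, read 20.4, 5.36 and 25.8. Of 8 measured neutrophil markers other than the members, 0 were above ND in both HFD arrays and 6 were below it in both. Over all named genes these shares were 33.1% and 47.9%. The summed intensity of the 8 was 2201 in ND and 1424 and 1444 in HFD. Most of it came from Il1r2 and Mmp9, the 2 that passed the filter. The markers Ly6g, Retnlg and Stfa1 were not analysed here. Among other neutrophil transcripts, Stfa3, a stefin, fell 3.59-fold (625 to 162 ± 12.1, adjusted p = 1.4e-05 by limma), and Padi4, which citrullinates histones, fell 1.91-fold (adjusted p = 0.022, but 0.14 with no filter and 0.069 with quantile normalization). Fpr2, a formyl peptide receptor that also binds the Camp peptide, was picked out after its values were seen. It read 7.55 in ND, 69.5 in HFD 1 and 93.1 in HFD 2, high in both HFD arrays as the S100 pair was. The gene did not pass the filter, and in the fit with no filter it was 3.90-fold higher (adjusted p = 0.030 by limma). Il1b and Mxd1 did not pass the test, at 181 and 424 in ND and 124 ± 6.70 and 348 ± 0.074 in HFD.

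Of 9 measured regulators of granule genes, which are transcription factors and the G-CSF gene Csf3, 6 passed the filter. Of these 6, 2 rose and 3 fell, against 20.5% and 29.2% of all genes tested. Cebpa, which commits progenitors to the granulocyte line, fell 2.37-fold (378 to 150 ± 20.1, adjusted p = 7.4e-04 by limma). Cebpb, which supports emergency granulopoiesis, fell 1.96-fold (3497 to 1781 ± 89.6), and Runx1 fell 2.19-fold. Myb rose 1.92-fold (1147 to 2235 ± 431), and Gfi1 read 1714 in ND and 2201 ± 99.7 in HFD, a rise of 1.28-fold (adjusted p = 0.026 by limma, but 0.059 with no filter). These factors also act in T cells. Spi1, which encodes PU.1, did not pass the filter at 63.0 in ND and 34.1 and 90.2 in HFD, and Cebpe, the factor of the secondary granule genes, was not analysed here.

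Among receptors and binding partners of the 8 proteins, 7 of 10 measured genes read lower than ND in both HFD arrays, where 47.9% of all named genes did. Of the 10, 3 passed the filter, of which Bsg rose and Serpinb1a and P2rx7 fell. With no filter 2 of the 10 were called higher and 1 lower, against 9.14% and 10.6% of all named genes. Bsg, a surface glycoprotein that binds S100A9, rose 1.62-fold (811 to 1328 ± 44.0, adjusted p = 9.1e-04 by limma). Serpinb1a, an inhibitor of neutrophil elastase, fell 2.67-fold (339 to 120 ± 44.8; adjusted p = 0.0017, but 0.055 with no filter). P2rx7 fell 2.82-fold (5719 to 2015 ± 10.6), with 1 of its other probe sets reading the opposite way (log2 0.72). The calprotectin receptors Tlr4 and Ager did not pass the filter, at 100.1 in ND and 40.1 and 70.8 in HFD for Tlr4 and 65.7, 57.9 and 8.45 for Ager. The other Tlr4 probe sets disagreed, with log2 differences of -1.25, 1.23 and 0.03. Fpr2, described above, is on this list too.

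No other S100 gene measured was called higher with S100a8 and S100a9. Of 9 measured, 5 passed the filter, of which 0 rose and 4 fell, against 20.5% and 29.2% of all genes tested. With arrays centred on the median 2 of the 5 fell. With no filter 2 of the 9 fell, against 10.6% of all named genes. S100a4 and S100a10, which T cells express at high levels, fell 1.30-fold (14682 to 11337 ± 1314) and 1.27-fold (18986 to 14956 ± 1127), and S100a6 and S100a13 fell 1.49-fold and 1.53-fold. The falls of S100a4 and S100a10 were not called with no filter (adjusted p = 0.098 and 0.082) or with arrays centred on the median (adjusted p = 0.11 and 0.17). The list's median was -0.38 past the filter, against -0.15 over all genes tested.

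Markers of other cells moved in both directions between the diets, and their part in the S100a8 and S100a9 result was not tested. Of 19 measured monocyte and macrophage markers, 13 passed the filter, of which 0 rose and 10 fell, against 20.5% and 29.2% of all genes tested. The summed intensity of the 19 was 7653 in ND and 3592 and 3809 in HFD. Csf1r, the receptor for macrophage growth factor, fell 2.76-fold (743 to 260 ± 51.1). Of 10 measured dendritic cell markers, 9 passed the filter, of which 0 rose and 6 fell. The sums of the 10 were 5160 in ND and 2812 and 3176 in HFD. The other 3 tested monocyte and macrophage markers and the other 3 tested dendritic cell markers were not called. Fcgr1, an Fc receptor below the filter, read 34.0 in ND and 45.3 and 63.6 in HFD, but its other probe set read 25.7, 28.8 and 1.58. With arrays centred on the median, 8 monocyte and macrophage and 4 dendritic cell markers were called lower. With no filter, 7 of the 19 and 4 of the 10 were called lower, against 10.6% of all named genes.

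B cell markers were split. Of 11 measured, 6 passed the filter, of which 2 rose and 1 fell, and the sum was 1998 in ND and 3579 and 3879 in HFD. Ms4a1, which encodes CD20, rose 23.4-fold (56.8 to 1725 ± 159) and Fcer2a rose 12.2-fold (31.6 to 584 ± 85.2), while Cd22 fell 1.68-fold. The antigen receptor chain Cd79a read 5.74 in ND and 51.2 and 49.4 in HFD, and its partner Cd79b read 219, 190 and 168. Eosinophil, basophil and mast cell markers had sums of 252 in ND and 262 and 305 in HFD. Of 8 measured, 1 passed the filter, and 0 were called with or without it. ND lay below both HFD arrays in 4 of the 8 and above both in 3, against 33.1% and 47.9% of all named genes. Erythroid markers had 1 rise, of the transferrin receptor Tfrc, which dividing T cells also express, and 1 fall, of Car2. Of 8 measured, 3 passed the filter, and with no filter 1 rose and 2 fell. The sum of all 8 without Tfrc, the brightest, was 799 in ND and 531 and 402 in HFD. Of 7 measured NK cell markers, 5 passed the filter, of which 2 rose and 1 fell (1 and 1 with no filter). Of 6 plasma cell markers, 4 passed, of which 1 rose and 0 fell (0 and 0 with no filter). Over all genes tested 20.5% rose and 29.2% fell, and with no filter 9.14% and 10.6%. Of 5 measured platelet markers, 2 passed the filter, and 0 were called with or without it. The 5 had sums of 254 in ND and 351 and 279 in HFD. ND lay below both HFD arrays in 2 of the 5 and above both in 0.

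**Figure D3:**
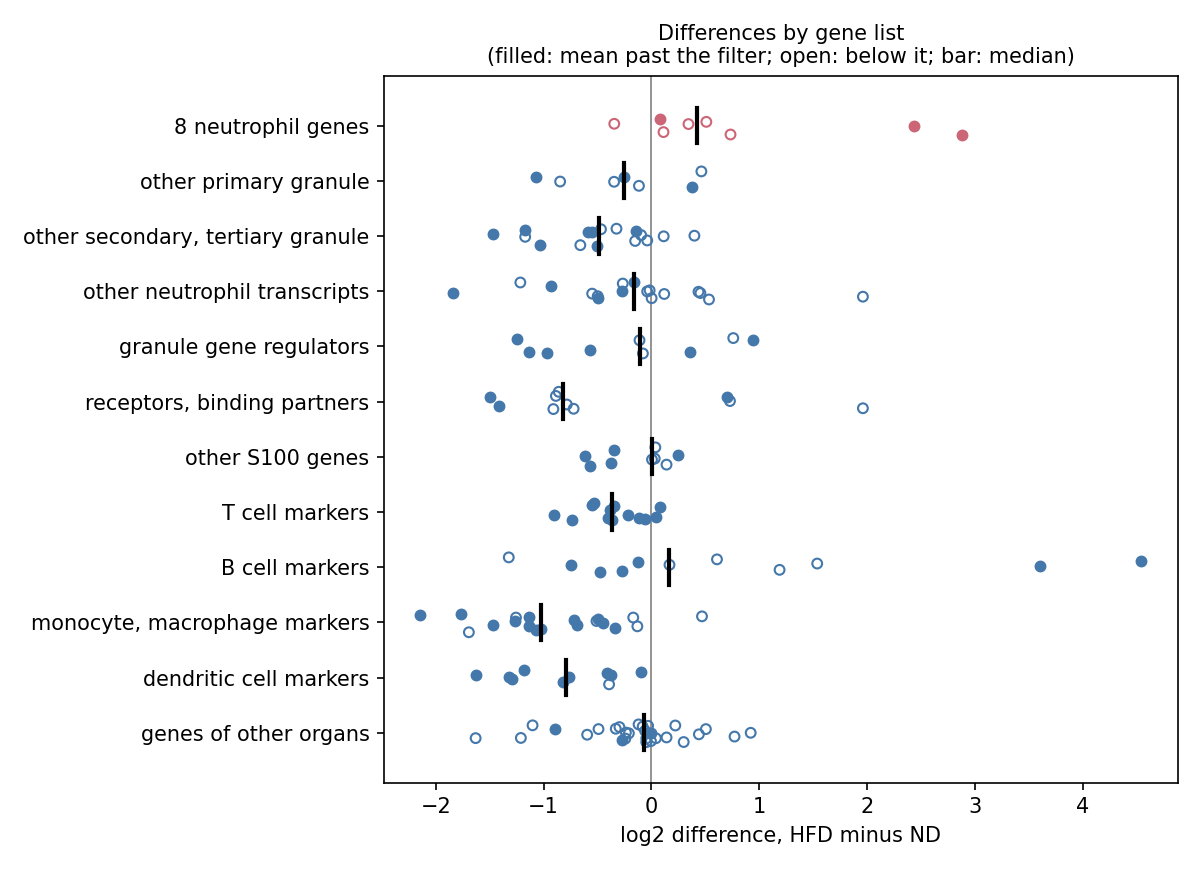
Difference between HFD and ND (log2) for each measured gene of 12 lists (filled circles, mean past the filter of 71.4; open circles, below it; bars, list medians over all measured genes). S100a8 and S100a9 at 2.44 and 2.88 stand to the right of all other neutrophil, S100 and myeloid genes plotted, and the B cell markers Ms4a1 and Fcer2a stand further right still.

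The genes whose pattern over the 3 arrays was most like that of S100a8, the brightest member, were Cdca7, Zbed5, Tmem87a, Ung and Mfsd2a. Likeness was the Euclidean distance between centred log2 values, which was 0.11 to 0.18 for these 5 genes. Cdca7 read 454 in ND, 2135 in HFD 1 and 2782 in HFD 2. None of the 5 is on the neutrophil lists. S100a9 was at place 232 of 10340 by this measure, at a distance of 0.76. With 3 arrays, any gene of similar fold and similar order of the HFD arrays is close, so likeness describes these arrays and no more.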

How the data were processed

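RNA of 3 sorted T cell samples (1 ND, 2 HFD) was measured on Affymetrix arrays. The deposited values are linear intensities per probe set, made with GCOS, Affymetrix's software, per the submitters' processing notes, which state no version, algorithm or background correction. Judged by the values, every array had been scaled so that its mean, less the top and bottom 2% of probe sets, is 500.003, so a change of bright transcripts shifts all other values of that array.

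Of 45037 probe sets besides 64 controls, 34945 had 1 gene symbol and 932 several in the platform annotation, and the 932 were not named. Entrez identifiers of 34741 matched the RefSeq gene table (GRCm38.p6), which changed 0 symbols. Genes with several probe sets took the brightest one, the filter was a mean above 71.4, and the model was limma 3.58.1 in R 4.3.3, using lmFit and eBayes with a variance trend (11.7 prior degrees of freedom). The code was tested on simulated data. Tables and figures used pandas 2.3.3, numpy 2.4.6 and matplotlib 3.10.9 in Python 3.11.15.

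The 8 genes and all lists were chosen with earlier results of these data known. The rule for named genes took the members and, from each list, up to 4 tested genes that ranked first by the difference to ND of the HFD array nearer to it. Not all of these are described, and Gfi1, Cd79b and the dim or unmeasured genes named were chosen outside the rule, after their values were seen. Alternatives covered offset, normalization, filter, merging of probe sets, variance model and leaving out each HFD array. No set tests were run. The number of arrays limits the precision.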

Additional observations from a re-analysis of the deposited data

How the results depend on the processing

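S100a8 and S100a9 were called in the 9 of 11 alternatives that tested them, but 7 of the 11 leave their log2 difference as it is, an offset cannot turn its sign, and most keep a filter that both passed through HFD alone, so this says little about stability. The log2 differences were 1.73 to 2.84 and 1.55 to 4.51 over the 11, with limma adjusted p of 3.8e-19 to 0.013 and 1.2e-11 to 0.014. The smallest came from arrays centred on the median, where the log2 differences, 2.59 and 3.03, were close to the main 2.44 and 2.88. With 1 residual degree of freedom per gene, p-values this small are no measure of precision. The number of members called was 2 in the main analysis and 0 with a filter at the 75th percentile, which left no member to test, and 0 with a filter on the lower of the group means, which left only Ngp. Over all genes the number called ranged from 3585 to 5201 against 5132, and centring arrays turned the balance from 2117 higher and 3015 lower to 2757 and 2097. The number of members at least 2-fold from ND in both HFD arrays was 2 under all 11 alternatives, and 2 to 3 with a single HFD array, the additional gene being Ltf in HFD 2. With a single HFD array no residual degrees of freedom remain, so no test was run, and the log2 difference was 2.18 to 2.70 for S100a8 and 2.66 to 3.09 for S100a9. Ngp and Ltf changed sign between the HFD arrays. No paired analysis was possible because the labels give the ND sample no replicate number. Without detection calls, dim signal cannot be told from background.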
